A study of Homo sapiens with 6 samples.

Results

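Chromosome 6 carries most of the human genes for the core histones and the linker histone H1 that are made during DNA replication. They were taken as the protein-coding genes on this chromosome whose symbols start with H1-, H2AC, H2BC, H3C or H4C in GENCODE release 44 (hg38), which gave 55 of 20033 protein-coding genes: 6 H1, 12 H2A, 15 H2B, 10 H3 and 12 H4 genes. The assay was ATAC-seq, in which the Tn5 transposase tags DNA that nucleosomes leave free, and the cells were HLF, an established line from a human liver cancer. Cells received DMSO as vehicle or 5 μM SNDX-5613, an inhibitor of the binding of menin to the histone methyltransferase MLL1, with 3 libraries in each group. The labels give 24 h of treatment and the study's methods give 4 days, so the duration is uncertain. Per the study's methods, a replicate was a dish of cells divided between treated and untreated samples, so p-values measure the spread between dishes of 1 cell line.

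Replication-dependent histone genes are short, lack introns and are transcribed as cells copy their DNA, and their mRNAs end in a stem-loop in place of a poly(A) tail. The coactivator NPAT gathers at their clusters in nuclear bodies. Their promoters differ by class: CCAAT boxes, which the factor NF-Y can bind, and the octamer ATTTGCAT, which POU2F1 can bind, are known from H2A and H2B promoters, and an AC-rich box (AAACACA) is known from H1 promoters. Many H2A and H2B genes lie head to head and share the DNA between their starts.

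The promoters are shown as an open and a closed example of each class, where closed means that no library had a peak within 500 bp of the start. The sequences are from RefSeq (GRCh38.p14) and run 5′ to 3′ on the strand of the gene named, up to the base before its start, with 200 bases for single genes and all bases between both starts for head-to-head pairs. Capitals mark CCAAT boxes and, in the pairs, the octamer or, in the H1 genes, AAACACA, on either strand, so that CCAAT may read as ATTGG and the octamer as ATGCAAAT.
H2AC11 with H2BC11, open (chr6:27132796-27133042, plus strand): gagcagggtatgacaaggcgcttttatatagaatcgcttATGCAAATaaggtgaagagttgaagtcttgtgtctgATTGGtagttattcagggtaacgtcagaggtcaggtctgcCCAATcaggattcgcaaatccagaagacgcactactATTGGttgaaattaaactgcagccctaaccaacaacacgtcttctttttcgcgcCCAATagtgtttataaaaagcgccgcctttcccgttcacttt
H2BC1 with H2AC1, closed (chr6:25726563-25726776, plus strand): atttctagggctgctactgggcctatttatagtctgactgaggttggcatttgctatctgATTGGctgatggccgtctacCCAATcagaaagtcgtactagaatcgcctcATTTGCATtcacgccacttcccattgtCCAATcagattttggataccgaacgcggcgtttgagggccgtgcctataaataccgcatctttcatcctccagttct
H1-4, open (chr6:26156129-26156328, plus strand): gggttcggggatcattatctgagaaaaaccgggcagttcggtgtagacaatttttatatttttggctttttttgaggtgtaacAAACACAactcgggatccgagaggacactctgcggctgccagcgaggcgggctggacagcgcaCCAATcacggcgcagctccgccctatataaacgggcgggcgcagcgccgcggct
H1-6, closed (chr6:26108136-26108335, minus strand): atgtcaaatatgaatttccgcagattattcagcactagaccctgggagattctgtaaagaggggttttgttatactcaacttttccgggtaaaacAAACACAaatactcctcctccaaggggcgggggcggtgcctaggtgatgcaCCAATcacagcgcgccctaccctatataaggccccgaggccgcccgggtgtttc
H3C10, open (chr6:27809851-27810050, plus strand): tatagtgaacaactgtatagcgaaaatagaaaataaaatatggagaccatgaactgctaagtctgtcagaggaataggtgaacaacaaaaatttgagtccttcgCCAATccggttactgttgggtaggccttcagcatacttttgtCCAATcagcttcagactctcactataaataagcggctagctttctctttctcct
H3C7, closed (chr6:26250636-26250835, minus strand): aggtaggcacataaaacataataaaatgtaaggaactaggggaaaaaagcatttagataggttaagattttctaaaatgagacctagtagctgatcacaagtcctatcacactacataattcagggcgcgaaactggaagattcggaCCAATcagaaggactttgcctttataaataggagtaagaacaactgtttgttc
H4C4, open (chr6:26189113-26189312, minus strand): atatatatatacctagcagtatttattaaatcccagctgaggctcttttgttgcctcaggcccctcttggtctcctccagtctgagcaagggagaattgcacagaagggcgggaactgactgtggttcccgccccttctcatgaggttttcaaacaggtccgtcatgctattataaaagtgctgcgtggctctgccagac
H4C6, closed (chr6:26240193-26240392, plus strand): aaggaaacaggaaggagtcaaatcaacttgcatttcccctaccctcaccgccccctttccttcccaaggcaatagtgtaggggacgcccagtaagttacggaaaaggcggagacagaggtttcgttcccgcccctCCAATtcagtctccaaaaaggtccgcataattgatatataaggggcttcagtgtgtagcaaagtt
In this view the closed H2BC1, H1-6 and H3C7 promoters hold the same kinds of named box as the open promoter of their class. The number of CCAAT copies differs, with 3 at the closed H2BC1 pair against 4 at the open H2AC11 pair. Closed H3C7 holds 1 copy against 2 at open H3C10, and H1-6 and H1-4 hold 1 each. The open H4C4 promoter holds no CCAAT and the closed H4C6 promoter holds 1. These differences belong to the examples. The open H2AC15 pair, not shown, also holds 3 CCAAT copies and has no octamer, and closed H4C7 holds no CCAAT.

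Across the window from 250 bases before to 50 bases after the start, RefSeq promoters matched 50 of the 55 genes, and 48 whose start lay within 50 bp of the GENCODE start were searched on both strands. H4C1, H4C3, H2AC12, H3C11 and H3C12 had no entry. CCAAT occurred in 85.4% of the 48 promoters against 36.6% of 15345 protein-coding promoters, and 3 or more copies occurred in 54.2% against 4.11%. The classes differed in this box, which was in 11 of 11 H2A, 15 of 15 H2B, 6 of 6 H1 and 6 of 6 H3 promoters but in 3 of 10 H4 promoters. Paired H2A and H2B genes share these letters, so their counts are not independent. ATTTGCAT occurred in 9 of 11 H2A and 12 of 15 H2B promoters and in no H1, H3 or H4 promoter searched, against 1.70% of all promoters. AAACACA occurred in 6 of 6 H1 promoters and in no other member, against 4.25% of all promoters. The TATA box TATAAA was in 66.7% of the members' promoters against 9.63%. CCAAT copies had a median position of -52 from the start in H1, -91 in H3, -94 in H2A and -131.5 in H2B promoters. The DNA within 250 bp of the starts had a median G+C content of 50.3% in the members against 64.7% over all protein-coding genes.

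Most of these promoters were open. A peak summit lay within 500 bp of the start in all 6 libraries for 44 of the 55 genes (80%), against 56.5% of all protein-coding genes. H1-3 had a peak in 5 libraries, all but SNDX-5613 replicate 3, and 10 genes had a peak in none (18.2%), against 29.8% of all protein-coding genes. By class, a peak in all 6 libraries was found at 4 of 6 H1, 11 of 12 H2A, 13 of 15 H2B, 6 of 10 H3 and 10 of 12 H4 genes. The same 10 genes were without a region in both consensus peak sets of the authors, and the other 45 had one in both. No gene was open in 1 treatment and closed in the other, since H1-3 had a peak in the other 2 SNDX-5613 libraries.

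The libraries were not equally deep, and this touches every value below. SNDX-5613 replicate 3 had 40568 peak regions against 88026 to 113675 in the other 5 libraries, and its genome-wide background pileup, which was worked out from the deposited values as a relative measure of depth, was 16.2% of the median of the others. Its lowest called pileup was 3 overlapping fragments at a background of 0.211, against 6 or 7 at backgrounds of 0.997 to 1.51 elsewhere. Relative to background its lowest call was thus the highest, so weak sites could go undetected in it. VIM, AXL and CD44, genes used by mesenchymal-like lines such as HLF, had promoter peaks in all 6 libraries.

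Peak strength was described by the list percentile, the percentile of the -log10 p of the strongest summit at a gene among all peak regions of that library, where 100 is the strongest. Over members with a peak, the median was 88.5, 91.8 and 90.5 in DMSO replicates 1 to 3 and 90.5, 90.6 and 79.5 in SNDX-5613 replicates 1 to 3. This was 90.3 ± 1.66 (SD, n = 3) in DMSO and 86.9 ± 6.37 (SD, n = 3) in SNDX-5613 libraries, with 2 SNDX-5613 libraries inside the DMSO range and the shallow one below it. The same medians over all protein-coding genes with a peak were 92.7 ± 0.801 (SD, n = 3) and 89.6 ± 5.13 (SD, n = 3), and the members' median was the lower one in each of the 6 libraries. In the 5 deeper libraries, 43 of the 44 genes had a median percentile above 75 and 23 above 90.

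**Figure D1:**
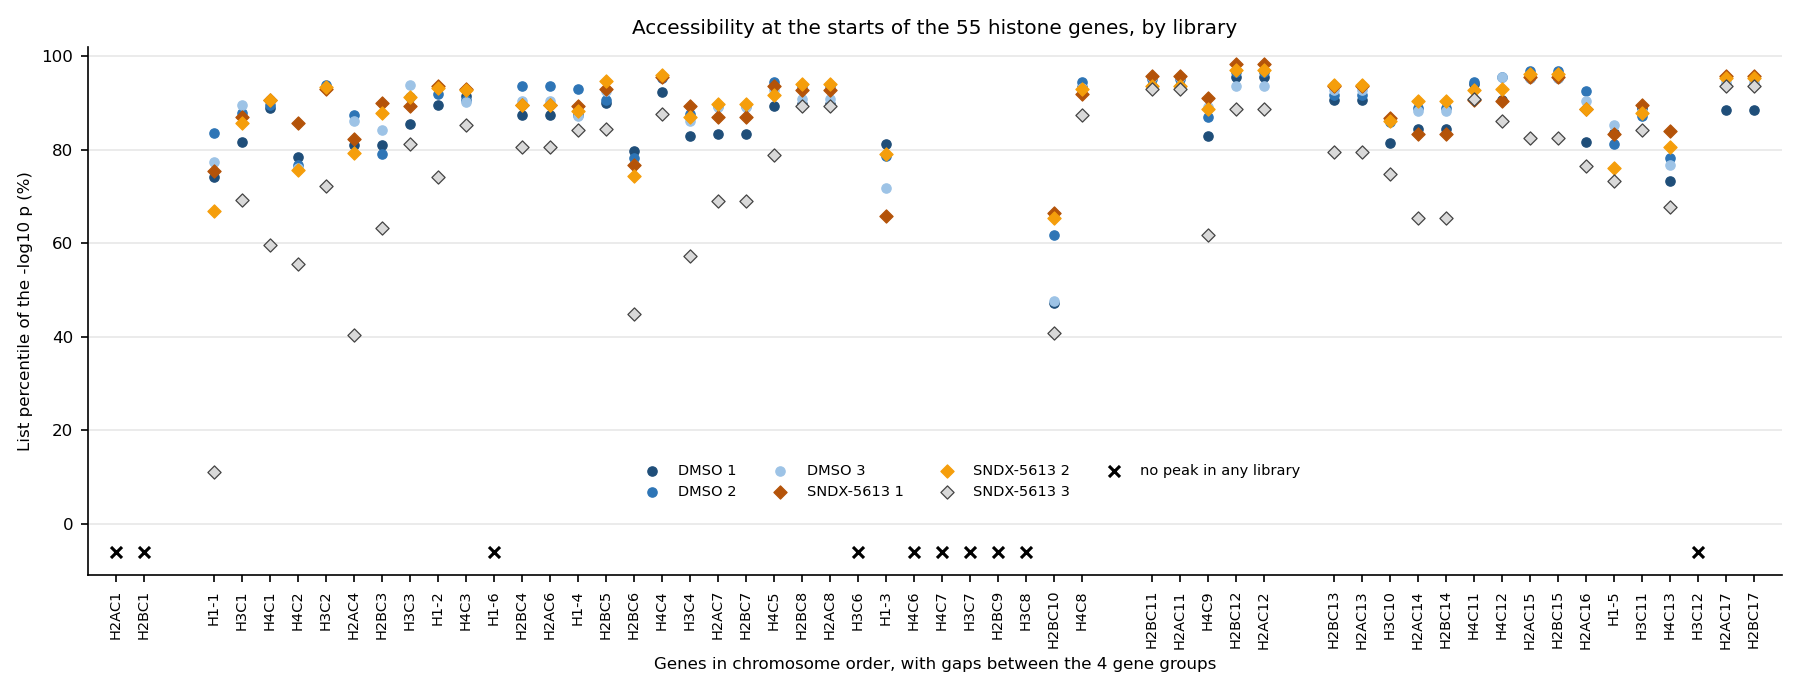
List percentile (%) of the strongest summit at each of the 55 genes, in chromosome order along the x axis with gaps between the 4 gene groups, with a circle for each DMSO and a diamond for each SNDX-5613 library and a cross for genes without a peak. Most genes sit above 75 in the 5 deeper libraries, grey diamonds of SNDX-5613 replicate 3 sit lower, and 10 crosses mark the closed genes, of which H4C6, H4C7, H3C7, H2BC9 and H3C8 are neighbours.

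Some promoters shared by H2A and H2B genes, whose products pair in the nucleosome, were among the members' strongest by list percentile. The members held 10 head-to-head pairs with starts 194 to 251 bp apart, and 9 of them were open. In each open pair, the same summit was the strongest for both genes in all 6 libraries. H2BC12 and H2AC12 were the highest of their classes, at 95.7, 96.6 and 93.7 with DMSO and 98.3, 97.2 and 88.6 with SNDX-5613. The summit there held 186, 257 and 220 overlapping fragments in DMSO and 262, 255 and 37 in SNDX-5613 libraries. The shallow library was the lowest of the 6 at this pair in both measures. The median over paired genes exceeded that over the other members with a peak by 3.68 to 8.68 percentile points in all 6 libraries.

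Among single genes, H4C4 was the highest of the H4 genes, which encode the partner of H3 in the tetramer, at 92.4, 95.4 and 95.9 in DMSO and 95.5, 96.1 and 87.6 in SNDX-5613 libraries. H3C2 was the highest H3 gene, at 93.3, 93.8 and 93.3 in DMSO and 93.1, 93.5 and 72.3 in SNDX-5613 libraries. The shallow library was again the lowest. H1-2, a linker histone gene, was the highest of its class at 89.6, 91.9 and 93.5 in DMSO and 93.7, 93.1 and 74.1 in SNDX-5613 libraries.

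The weakest open member was H2BC10, an H2B gene that does not share its promoter with an H2A gene. Its percentiles were 47.2, 61.8 and 47.7 in DMSO and 66.5, 65.5 and 40.7 in SNDX-5613 libraries, with 24 to 39 fragments at the summit in the deeper libraries. H1-1 was the lowest H1 gene at 74.2, 83.7 and 77.5 in DMSO and 75.6, 66.8 and 11.1 in SNDX-5613 libraries. H2AC4 was the lowest H2A gene with a median of 81.7 over the 6 libraries, H4C2 the lowest H4 gene with 76.5, and H3C10 the lowest H3 gene with 86.1.

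Class medians followed a partial order. H2A and H2B stood above H1 and above H3 in 6 of 6 libraries, by 4.95 to 14.6 points over H1 and 2.08 to 7.11 points over H3. H4 also stood above H1 and above H3 in 6 of 6 libraries. H2A and H4 changed places, with H2A higher in 4 of 6 libraries by up to 1.93 points, and H2A and H2B were equal in all libraries but 1. H3 exceeded H1 in 5 of 6 libraries. Averaged over the 6 libraries, the class medians were 90.02 ± 5.01 for H2A, 89.7 ± 4.79 for H2B, 89.8 ± 3.87 for H4, 85.2 ± 5.99 for H3 and 81.5 ± 4.29 for H1 (SD over libraries, n = 6). Genes of a class are not replicates, so the order is given as a description. Ranked by fold enrichment in place of -log10 p, H4 came first at 77.0, followed by H2A at 67.1, H2B at 65.4, H3 at 55.9 and H1 at 55.7.

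**Figure D2:**
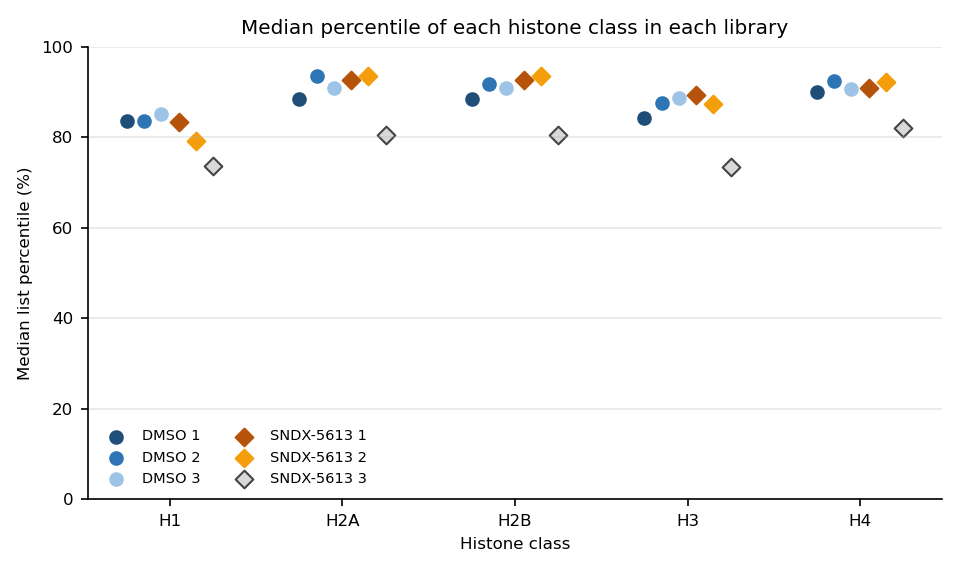
Median list percentile (%) of the genes with a peak in each histone class (x axis), with 1 point for each library. H2A, H2B and H4 lie above H1 and H3 in every library, and each class is lowest in SNDX-5613 replicate 3.

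Summits lay just upstream of the starts. The median position of the strongest summit relative to the start was -87, -80 and -76 bp with DMSO and -68, -71 and -34 bp with SNDX-5613. Taken per gene over its libraries, the summit was upstream at 40 of the 44 genes open in all 6, with medians from -174 to 44 bp. Of these 44 genes, 18 lie in head-to-head pairs, where a shared summit between the starts is upstream of both genes. Peak regions at members had a median width of 793 to 918 bp in the 5 deeper libraries against 702 to 768 bp at all open promoters. Summit pileups had medians of 126, 179 and 187 fragments in DMSO libraries against 128, 168 and 163 at all open promoters, and of 149, 173 and 28 against 140, 145 and 26 in SNDX-5613 libraries. The local background under the summits was higher than at other promoters in each library, at 13.5, 18.1 and 20.6 in DMSO against 7.38, 9.03 and 9.81, and at 16.7, 21.1 and 3.02 in SNDX-5613 against 7.80, 9.28 and 1.45. Both the fold and the -log10 p are relative to this background, whose part in the members' percentiles was not tested. Ranks by pileup and by fold are given with the promoter percentiles below.

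**Figure D3:**
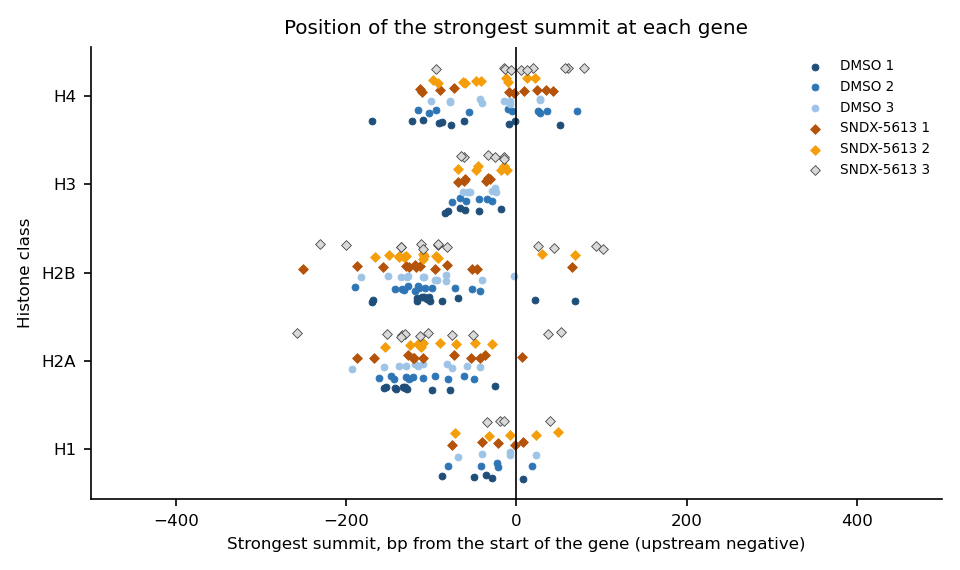
Position of the strongest summit in bp from the gene start (x axis, upstream negative) for the genes of each histone class (y axis), with 1 point for each gene and library. Most points lie within 150 bp of the start, and the class medians run from -122.5 bp (H2A) to -17.5 bp (H1).

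The 10 closed genes included testis genes and a run of neighbours. H2AC1 and H2BC1, a head-to-head pair at 25726562 and 25726777, encode testis variants of H2A and H2B, and H1-6 encodes the testis linker histone H1t. These 3 genes had no peak in any library. H4C6, H4C7, H3C7, H2BC9 and H3C8 are 5 consecutive protein-coding genes whose starts span 31.0 kb, from 26240393 to 26271413, and none had a peak within 500 bp of its start in any library. Each of the 5 deeper libraries had 1 summit in this stretch, 6836 to 6846 bp past the start of H2BC9, between that gene and H3C8. The members on either side were weak: H1-3, with its start 5406 bp before that of H4C6, was at 81.2, 78.6 and 71.9 in DMSO and at 65.9 and 79.1 in the deeper SNDX-5613 libraries, and H2BC10 lies 1518 bp past H3C8.

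**Figure D4:**
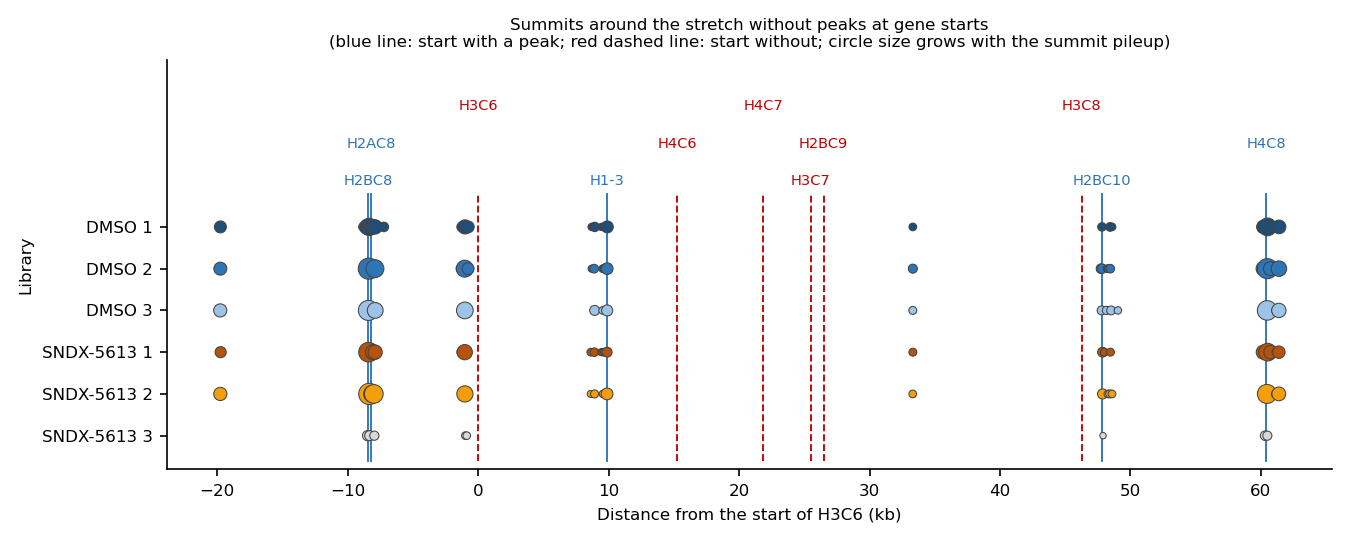
Summits of each library (rows) around the closed stretch, by distance from the start of H3C6 in kb (x axis), with circle area growing with the pileup, blue lines for starts with a peak and red dashed lines for starts without. The 5 consecutive starts from H4C6 to H3C8 have no circle on them, while the flanking H2BC8, H2AC8 and H4C8 starts carry large circles.

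For H3C6 and H3C12 the call depended on the start used. H3C6 has another annotated start at -936 bp from the canonical one, and with it the gene had a peak in all 6 libraries at 87.5, 91.9 and 90.8 in DMSO and 90.4, 91.3 and 69.4 in SNDX-5613 libraries. H3C12 has an annotated start at -2280 bp, where the peak is the one shared by H2AC17 and H2BC17. With any annotated start, 46 members were open in all 6 libraries and 8 in none.

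Repeated sequence and base composition of the closed genes were measured, since reads from repeats are hard to place. No 50-base word within 250 bp of the start was repeated elsewhere in the genome at 9 of the 10 closed genes, and 2.88% of words were at H3C12. Over all members, 44 had no repeated word. The highest shares were 65.3% at H4C11 and H4C12, and 42.9% at H2AC13 and H2AC14, so reads of these genes may be uncertain between copies. The G+C content was 44.9% to 53.5% at closed and 43.1% to 59.5% at open members. CCAAT was in 7 of 8 closed and 33 of 39 open promoters searched, with 3 or more copies in 4 of 8 and 22 of 39. TATAAA was in 4 of 8 and 27 of 39.

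Whether menin inhibition moved these promoters was asked on ranks among the 11321 protein-coding promoters with a peak in all 6 libraries. The shallowest library limits which promoters enter. In this promoter percentile the 44 open members had a median of 29.3, 32.2 and 32.4 in DMSO and 29.9, 35.1 and 40.2 in SNDX-5613 libraries. The groups overlapped, and the mean was 31.3 ± 1.76 (SD, n = 3) in DMSO and 35.1 ± 5.18 (SD, n = 3) in SNDX-5613 libraries. Ranked by pileup in place of -log10 p, the means were 48.8 ± 6.35 (SD, n = 3) and 53.2 ± 4.80 (SD, n = 3). Ranked by fold enrichment, they were 15.1 ± 1.18 (SD, n = 3) and 17.5 ± 4.94 (SD, n = 3). The members' level among promoters thus depended on the measure. By -log10 p the shift was 3.78 points with all libraries. Without SNDX-5613 replicate 3 it was 1.21 points on the same 11321 promoters and 0.237 points on the 12294 promoters with a peak in the 5 remaining libraries. Of the 44 members, 32 (72.7%) had a higher mean rank with SNDX-5613, against 49.9% of all promoters, and without that library, on the 12294 promoters, 26 of 45 (57.8%) did, against 49.6%.

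No histone gene passed the test for a difference. In limma, with Benjamini-Hochberg adjustment over all 11321 promoters, 0 of 44 members had an adjusted p below 0.05 in either direction, against 0.274% of all promoters called higher and 0.00883% called lower with SNDX-5613. At an unadjusted p below 0.05 there were 5 members (11.4%) with 4 distinct summits, against 8.4% of all promoters. Without SNDX-5613 replicate 3, 0 of 45 members were called, against 0.35% called higher and 0.0488% called lower, and the lowest adjusted p of a member in limma was 0.272.

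Ranks in all 3 SNDX-5613 libraries lay above all 3 DMSO libraries at 6 of 44 members (13.6%), against 7.3% of all promoters, and below them at 2 members (4.55%), against 6.69%. The 6 genes share 5 summits, and with 3 against 3 libraries the smallest exact two-sided permutation p of a single gene is 0.1. Without SNDX-5613 replicate 3, 11 of 45 members (24.4%) lay above and 3 (6.67%) below, against 12.2% and 12.4% of promoters. The 11 include H2BC12 with H2AC12, H2BC13 with H2AC13 and H2AC17 with H2BC17. Each of these pairs shares a summit, so the 11 are not independent.

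The largest difference was at the pair H2AC17 and H2BC17, at the far end of the last gene group. Its promoter percentiles were 29.3, 45.1 and 55.4 in DMSO and 62.4, 61.9 and 78.0 in SNDX-5613 libraries. All 3 treated libraries lay above all 3 controls, but the DMSO libraries themselves ran from 29.3 to 55.4. The normal-score difference was 0.64 (95% interval 0.16 to 1.12, limma adjusted p = 0.468). H2BC3, a single H2B gene, was at 14.3, 8.84 and 16.1 in DMSO and 28.1, 23.7 and 19.5 in SNDX-5613 libraries, again without overlap, with a difference of 0.42 (95% interval 0.07 to 0.76, limma adjusted p = 0.522). H2BC8 and H2AC8, which share a summit, were at 34.1, 43.0 and 34.0 in DMSO and 41.2, 53.2 and 64.6 in SNDX-5613 libraries. Their groups overlapped, with a difference of 0.41 (95% interval -0.0035 to 0.83, limma adjusted p = 0.595), which was 0.24 without SNDX-5613 replicate 3.

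The most negative normal-score difference was at H1-1, which was at 9.07, 12.7 and 9.46 in DMSO and 7.48, 4.29 and 0.649 in SNDX-5613 libraries. The groups did not overlap, and the normal-score difference was -0.62 (95% interval -1.08 to -0.16, limma adjusted p = 0.468). It was -0.22 without SNDX-5613 replicate 3, with a limma adjusted p of 0.648. The normal-score difference of H4C12 without that library was -0.35. H2AC4, also lower in all 3 treated libraries, was at 14.4, 18.3 and 19.1 in DMSO and 12.4, 10.8 and 7.53 in SNDX-5613 libraries. Its normal-score difference was -0.33, and -0.19 without SNDX-5613 replicate 3. H4C12, H3C2 and H2AC15 had overlapping groups, with normal-score differences of -0.23, -0.20 and -0.17. Leaving out 1 library, H4C12 ran from -0.42 without DMSO replicate 1 to -0.0485 without SNDX-5613 replicate 1. H3C2 and H2AC15 ran from -0.32 and -0.30 without SNDX-5613 replicate 2 to -0.0445 and -0.0119 without SNDX-5613 replicate 3. In promoter percentile points the fall in the mean was larger at H4C12 (-8.91), H3C2 (-7.69), H2AC4 (-7.01) and H2AC15 (-6.69) than at H1-1 (-6.27).

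The remaining members without overlap, named after their values were seen, were H4C3, H2BC10 and H4C13, all higher with SNDX-5613. H4C13 was at 8.58, 8.28 and 9.15 in DMSO and 14.5, 11.9 and 23.5 in SNDX-5613 libraries, and its limma adjusted p was 0.558. H2BC10 was at 2.09, 2.76 and 1.70 in DMSO and 3.67, 3.98 and 7.68 in SNDX-5613 libraries, so it stayed among the lowest promoters in both groups.

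**Figure D5:**
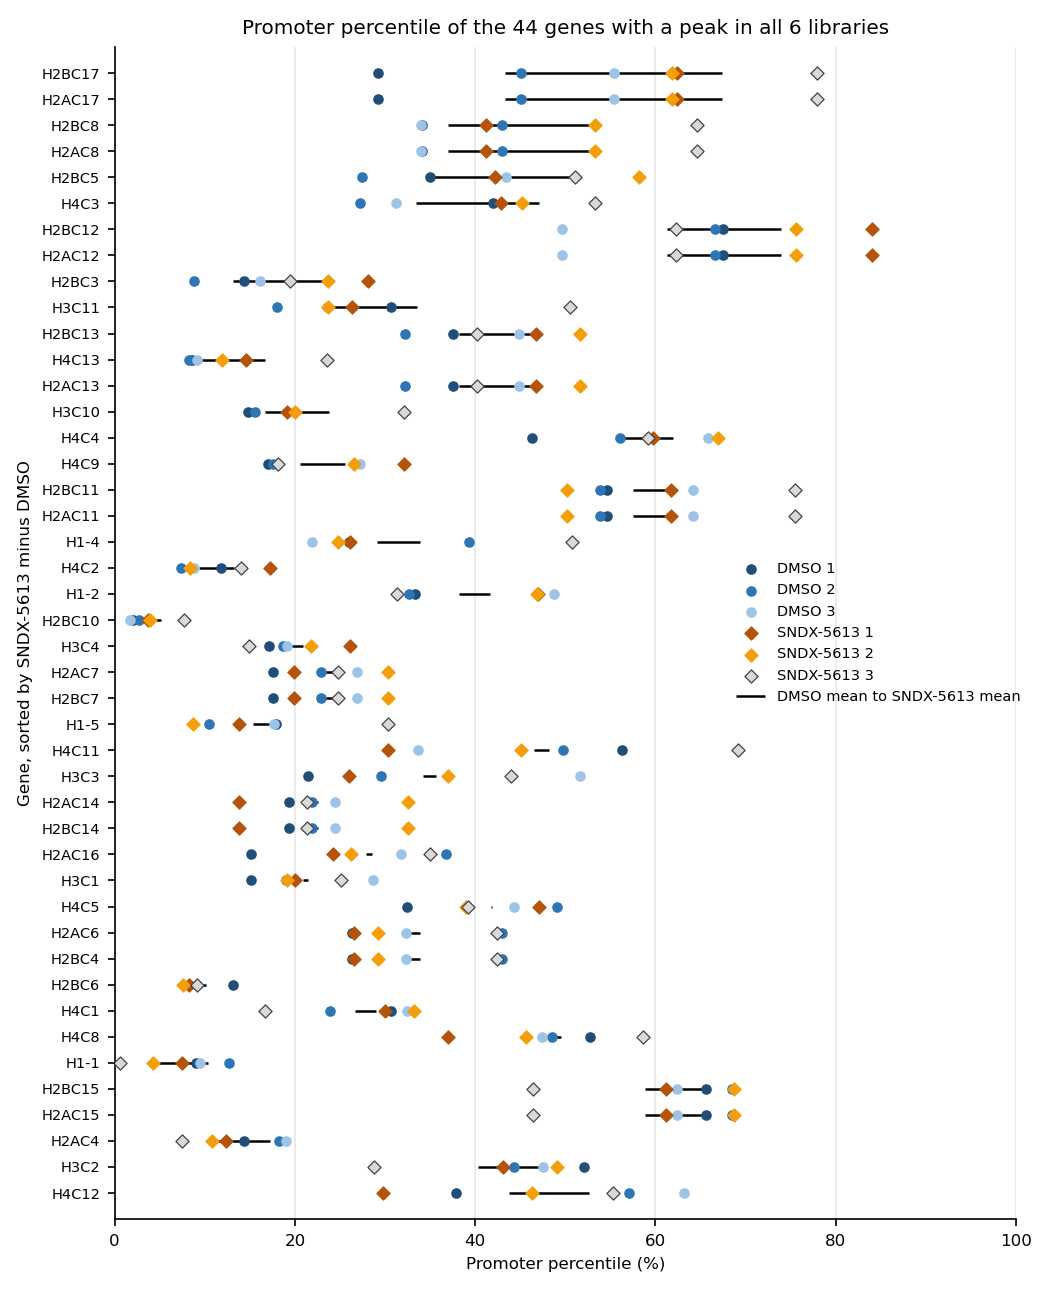
Promoter percentile (%) of the 44 open genes in each library (points), with a black line from the DMSO mean to the SNDX-5613 mean and genes sorted by that difference. H2AC17 and H2BC17 at the top and H1-1 near the bottom have groups that do not overlap, while most genes have points of both groups side by side.

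Genes of related function were given as lists. Replication-dependent histone genes on other chromosomes had a peak in all 6 libraries at 6 of 15, and the other 9 had none. Of those 9, 7 had only repeated 50-base words around the start, against 0% to 61.1% at the 6 open genes, where the placement of reads between copies is uncertain. H2AC25 and H2BC26 were closed with 0% and 24.1% of repeated words. The 14 genes of histone gene regulation and histone mRNA processing, such as NPAT and the stem-loop binding protein SLBP, and the 7 histone chaperone genes all had a peak in all 6 libraries, as did 10 of 11 replacement histone genes, with MACROH2A2 lacking a peak in SNDX-5613 replicate 3. In limma none of these promoters had an adjusted p below 0.05, and 3 of the 14 regulation genes had an unadjusted p below 0.05, against 8.4% of all promoters. By -log10 p, median promoter percentiles in DMSO libraries were 76.7 for regulation genes, 67.1 for chaperones, 63.3 for replacement histones, 36.3 for histone genes elsewhere and 33.9 for the members.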

How the data were processed

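Peak lists of 6 ATAC-seq libraries of HLF cells (DMSO or SNDX-5613, 3 each, 1 batch per the labels) were analysed. The authors aligned paired reads to hg38, marked duplicates, called peaks with summits in each library and combined replicates into consensus sets. The submitters' processing notes name Trim Galore 0.6.7, Bowtie2 2.3.4.1, Picard 2.20.0, deepTools 3.5.4, SAMtools and MACS2. Tn5 read shifting, mapping quality filters and a blacklist were not given in the sources used here, and repeats can then attract wrongly placed reads. The deposited lists give, for each summit, the authors' fold enrichment over local background (a ratio), their -log10 p and their -log10 q. Read counts were not analysed here, so no count model was fitted.

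Starts were those of Ensembl canonical transcripts in GENCODE release 44 on chromosomes 1 to 22, X and Y. No summit lay past a chromosome end. A gene took its strongest summit within 500 bp. Summit pileups were solved from fold and p and were whole (tolerance 0.02) for 100% of summits in each library. Ranks of promoters open in all 6 libraries were turned into normal scores and tested with limma 3.58.1 (R 4.3.3, trend, adjusted p below 0.05) without a block. The limma step was tested on simulated data. Gene groups were set apart by gaps over 200000 bp. Members, lists, motifs and tests were chosen with earlier results of these data known. Named genes were the highest and lowest of each class, those lacking a peak in a library, the 5 largest and 5 smallest limma differences, any called by limma and the testis genes. Alternatives were windows of 250 and 1000 bp, any base of a region, any annotated start, -log10 q of at least 3, equal numbers of regions, ranks by fold or pileup, percentiles among summits, quantile normalization, distinct summits, a replicate block and leaving out each library. Depth as read numbers is unknown. A planned check of marker genes is not reported here.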

Additional observations from a re-analysis of the deposited data

How the results depend on the processing

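Of 331 values recomputed under alternatives, 317 moved by less than the spread between libraries, stayed within 1.5 times or kept their side of the threshold, and 0 reversed. This rule is loose for the treatment comparison. Each value was judged alone, so a change in the order of groups or of classes was not counted as a reversal. The spread of 3.87 points exceeded the shift of 3.78 points itself, so even a fall to 0.237 counted as unmoved. The normal-score difference of H2AC15 also did, from -0.17 to -0.0119. Ranked by fold enrichment, the members' median list percentile was 65.6 with DMSO and 65.7 with SNDX-5613, and the class medians were 55.7 for H1, 67.1 for H2A, 65.4 for H2B, 55.9 for H3 and 77.0 for H4. With equal numbers of regions, the medians were 76.5 and 77.3, since the shortest list keeps the strongest regions of each library. In both settings the SNDX-5613 median was the higher one, whereas the main setting gave 90.3 with DMSO and 86.9 with SNDX-5613. With -log10 q of at least 3, 1 member lay below without overlap. Leaving out each library in turn gave 44 to 45 open members, medians of 89.5 to 91.2 in DMSO and 85.0 to 90.5 in SNDX-5613 libraries, and class medians of 80.7 to 83.0 (H1), 89.3 to 91.9 (H2A), 88.9 to 91.5 (H2B), 84.4 to 87.6 (H3) and 89.2 to 91.3 (H4). It gave a shift of 0.237 to 6.39 points, the lowest without SNDX-5613 replicate 3 (1.21 with the promoters of all 6 libraries kept) and the highest without SNDX-5613 replicate 1, and 7 to 13 members above and 2 to 5 below without overlap. The count above was 13 without DMSO replicate 3, 10 without SNDX-5613 replicate 1 and 11 without SNDX-5613 replicate 3, and the count below was 5 without SNDX-5613 replicate 2. Groups of 2 against 3 libraries part without overlap more often, at 10.7% to 13.3% of all promoters. No member was called by limma under any alternative, with unadjusted p below 0.05 at 2 to 9 members. The 2 were found by fold (4.55%, against 6.32% of all promoters) and the 9 by pileup (20.5%, against 9.5%). Without SNDX-5613 replicate 1 there were 8 (18.2%, against 11.1%). Paired genes that share a summit count separately in these numbers. Ranked by pileup, limma called 62 promoters higher and 6 lower, against 31 and 1 by -log10 p, and 0 of either by fold.

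With the replicate number as a block, 0 members were called, and 31 promoters were higher and 5 lower. Deviations from the group means correlated at 0.0383, -0.0131 and 0.00759 between same-numbered libraries, and not every library correlated best with its own number, so the numbers were not taken to pair the libraries. Any annotated start, any base of a region and equal numbers of regions were added to the treatment comparison after the data were seen. Distinct summits (for the shift and the counts without overlap), -log10 q of at least 3 (for the shift) and the shift on kept promoters were also added then. Precision is limited by 3 libraries a group, of which 1 was shallow. Pileups and percentiles carry no error of their own beyond the spread between libraries.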

Other observations

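Of the 20 other protein-coding genes between the first and the last histone gene, 13 had a peak in all 6 libraries. These include a gene without a symbol that lies head to head with H2BC7. It had the same percentiles as H2AC7 and H2BC7 in all 6 libraries, so that promoter is also counted among the members. The median list percentile over the other genes with a peak was 88.9, 88.3 and 89.2 in DMSO and 87.4, 88.8 and 61.8 in SNDX-5613 libraries. The solute carriers SLC17A1, SLC17A2, SLC17A3 and SLC17A4, which lie between the testis pair and the next histone genes and encode phosphate and urate transporters, had no peak in any library, nor did the protease gene PRSS16. HFE, a regulator of iron uptake, and TRIM38 had lower ranks in all 3 SNDX-5613 than in all 3 DMSO libraries, which makes 2 of 13 against 6.69% of all promoters. None of the 13 promoters had a limma adjusted p below 0.05, and 0 had an unadjusted p below 0.05. These genes were named after their values were seen.

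Head-to-head promoters of other protein-coding genes (opposite starts within 1000 bp) were open in all 6 libraries at 1746 of 1873 genes (93.2%), with a median promoter percentile of 65.0 in DMSO libraries, against 33.9 over the open histone genes. No test was made of this difference, which is by -log10 p. Ranked by pileup, the mean of the members' library medians with DMSO was 48.8 in place of 31.3. That of the other head-to-head promoters was not worked out by pileup.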
